A study of Caenorhabditis elegans with 24 samples.

Results

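The heat response of ribosome footprints in the metl-5 mutant of Caenorhabditis elegans was measured in 6 ribosome profiling libraries of adult worms, out of 24 libraries of the series. The members were chosen by their labels: 3 replicates of the strain labelled deltaC38delta4.9 (titled Metl5, described as DC38D4.9) at 37 °C were compared with 3 replicates of the same strain at 20 °C, over all genes. The other 18 libraries are 6 footprint libraries of Wild Type N2 worms at the same temperatures and 12 mRNA sequencing libraries of both strains and temperatures, with 3 replicates in each group. All groups are whole adult worms, and both mutant groups are labelled as carrying the metl-5 deletion, which 2 of the heated libraries did not bear out, as given below. No source used here gives the length of the heat exposure, the age in days, the extent of the deletion or whether the replicates were separate cultures. The p-values therefore measure the spread between these libraries, which may be technical.

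METL-5 is the worm counterpart of METTL5, an enzyme that methylates an adenosine in the RNA of the small ribosomal subunit. Ribosome profiling sequences the stretches of mRNA that ribosomes protect from digestion, so a gene's footprint count depends on both the amount of its mRNA and the number of ribosomes on it. In heat-shocked cells the transcription factor HSF-1 induces genes for chaperones, proteins that hold or refold damaged proteins, while general protein synthesis is commonly lowered. Levels are given in CPM, counts scaled to a library total of 1000000 over all genes. They are relative values with no added standard, so a fall of total protein synthesis cannot be seen in them.

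The mutant footprint libraries held 18655919, 11698735 and 11503305 gene counts at 20 °C and 4652198, 6754389 and 5042085 at 37 °C, in the order of replicates 1, 2 and 3, which is kept below. Between 99.7% and 99.9% of their gene counts lay on the sense strand. The deleted gene checks the labels. Its counts in mutant footprints were 15, 29 and 12 at 20 °C and 6, 53 and 27 at 37 °C, which is 0.804, 2.48 and 1.04 CPM at 20 °C and 1.29, 7.85 and 5.35 CPM at 37 °C. In Wild Type N2 footprints metl-5 stood at 6.52, 4.44 and 6.55 CPM at 20 °C and 7.26, 8.40 and 5.56 CPM at 37 °C. The libraries labelled as heated mutant replicates 2 and 3 thus lay within the wild-type range over both temperatures, 4.44 to 8.40 CPM. The other 4 mutant libraries lay below it.

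Other genes that differ between the strains divided the heated mutant libraries in the same way. ZK228.3 had 1, 0 and 1 counts in the mutant at 20 °C and 0, 63 and 57 at 37 °C, against 65 to 712 in the wild-type libraries. In CPM the heated mutant replicates 2 and 3 stood at 9.33 and 11.3. Wild-type libraries stood at 37.45, 17.05 and 34.35 CPM at 20 °C and 28.12, 29.32 and 10.04 CPM at 37 °C. ZK228.4 had 0, 0 and 0 counts at 20 °C and 0, 96 and 30 at 37 °C. The telomere-proximal gene cTel55X.1 had 383, 214 and 143 counts at 20 °C and 46, 62 and 25 at 37 °C, while 4 of 6 wild-type footprint libraries had 0. The libraries labelled as heated mutant replicates 2 and 3 thus held reads typical of both strains, and directions that rest on them carry that limit. The libraries labelled as Wild Type N2 replicate 2 at 20 °C and replicate 3 at 37 °C had 147 and 27 counts of cTel55X.1, so these too held reads typical of both strains. The apparent rise of metl-5 in the mutant, 1.74 ± 0.55 (adjusted p = 0.0345) on the log2 scale, became −0.20 without these 2 libraries. Likewise cyp-29A3, a cytochrome P450 gene, changed by 3.52 ± 0.79 (adjusted p = 0.0135) with them and by −0.21 without. In mutant mRNA cyp-29A3 had 3, 6 and 1 counts at 20 °C and 37, 19 and 18 at 37 °C, a rise of 3.49 ± 0.65 (adjusted p = 0.00213). The footprint change of ZK228.3 was 6.80 ± 1.28 (adjusted p = 0.0116) with them and −2.46 without.

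Replicate 2 at 20 °C stood apart in another way. For genes that differed at least 4-fold between the temperatures without it, its median position lay between the other unheated and the heated libraries. Among 254 such genes that were higher at 37 °C, it lay a median of 33.9% of the way from the mean of replicates 1 and 3 at 20 °C to the mean at 37 °C, with quartiles of 26.3% and 42.9%. It exceeded both other unheated replicates for 246 of the 254. Among 690 genes that were lower at 37 °C the median position was 30.6%. It lay below both other unheated replicates for 469 and above both for 49. Its rank correlation across genes with the heated libraries was 0.920 to 0.958, against 0.885 to 0.917 for replicate 1 and 0.886 to 0.910 for replicate 3. The genes for these positions were chosen by the other libraries, and no such position was computed for replicates 1 and 3. What set replicate 2 at 20 °C and the heated replicates 2 and 3 apart was not tested. Values without them are given below.

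**Figure D1:**
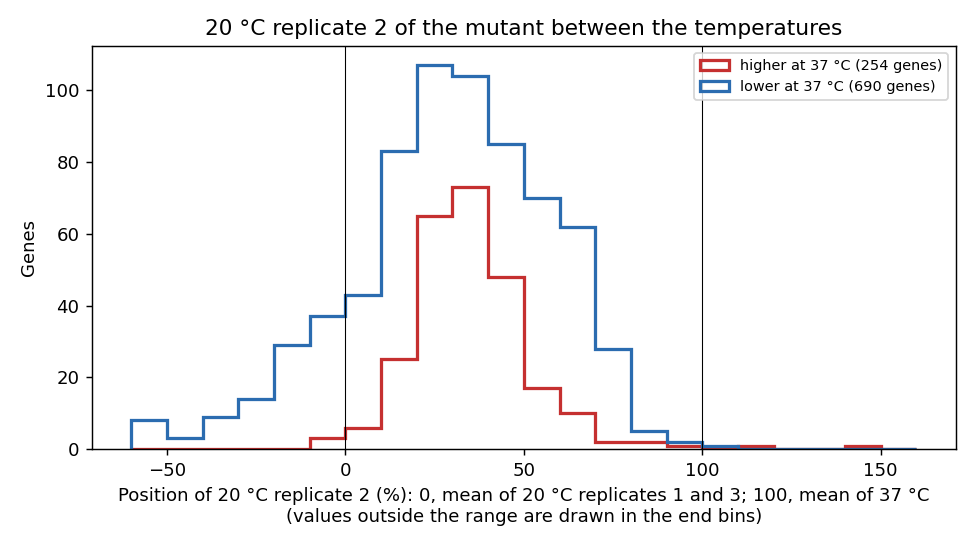
Position of mutant replicate 2 at 20 °C between the mean of the other 2 unheated mutant libraries (0%) and the mean of the heated libraries (100%), in percent on the horizontal axis, with the number of genes on the vertical axis. The genes are those called without this library that differed at least 4-fold. The median position was 33.9% for 254 higher genes and 30.6% for 690 lower genes.

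Heat changed the footprints of a large share of genes. In a fit of all 12 footprint libraries, 3332 of 12387 genes tested (26.9%) differed between 37 °C and 20 °C in the mutant at an adjusted p under 0.05 (edgeR quasi-likelihood test). Of these, 1507 (12.2%) rose, by a median of 1.13 on the log2 scale, and 1825 (14.7%) fell, by a median log2 change of −1.65. At least 2-fold changes were found for 966 that rose and 1591 that fell. The 3 heated libraries all lay above the 3 unheated ones for 3128 genes (25.3%) and all below for 3132 (25.3%). In whole worms, fewer cells of a type and fewer footprints per cell cannot be told apart.

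Without replicate 2 at 20 °C, 3113 of 12615 genes (24.7%) were called, 1374 higher (10.9%) and 1739 lower (13.8%). Of the genes called with all libraries, 1221 of 1507 rose and 1607 of 1823 fell in both fits, and none was called in opposite directions. Without the heated replicates 2 and 3, which leaves 1 library at 37 °C and takes the spread from the other groups, edgeR called 0 of 13129 genes, while 3236 had an unadjusted p under 0.05. In that fit the direction was the same for 1503 of the 1507 higher genes and all 1825 lower ones, with median log2 changes of 1.10 and −1.69. Without all 3 libraries 70 of 13106 genes (0.534%) were called, all higher, and none lower (0%). Of the gene lists described below, small heat shock proteins then had 5 called members, the HSP70 list 4, and ER stress, ubiquitin, lysozyme and autophagy lists 2 each. P granule genes, histones and nuclear hormone receptors had 1 each, and every other list had none. The direction then remained for 1504 of 1507 and for 1825 of 1825. These fits share libraries, so the shared direction is a description. The counts also rested on single libraries: without replicate 1 at 20 °C none was called and 3893 had an unadjusted p under 0.05. They were 289 without replicate 3 at 20 °C, 1149 without replicate 1 at 37 °C and 692 without replicate 3 at 37 °C.

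Small heat shock proteins bind unfolding proteins and keep them from aggregating. hsp-16.41 had 7.99, 2351 and 3.82 CPM at 20 °C and 7556, 8948 and 7359 CPM at 37 °C. hsp-16.2, its neighbour and a common heat shock reporter gene, had 4.99, 1298 and 2.35 CPM at 20 °C and 4059, 4703 and 3811 CPM at 37 °C. Every heated library exceeded every unheated one for both genes, and replicate 2 was far above the other unheated replicates. With that library the fitted log2 changes were 3.38 (adjusted p = 0.109) for hsp-16.41 and 3.31 (adjusted p = 0.107) for hsp-16.2, neither past the threshold. Without it, they were 10.24 ± 0.68 (adjusted p = 2.25e-05) and 9.99 ± 0.62 (adjusted p = 2.25e-05).

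The levels were ordered alike for hsp-70, the heat-inducible member of the HSP70 family, whose members refold proteins with the use of ATP. It had 25.5, 5083 and 10.8 CPM at 20 °C and 16100.3, 19039.8 and 22811 CPM at 37 °C, and was the gene with the most counts in each heated library. It took 1.61, 1.90 and 2.28% of all gene counts there. Its log2 change was 3.54 ± 1.50 (adjusted p = 0.0903) with all libraries and 9.91 ± 0.76 (adjusted p = 6.69e-05) without replicate 2 at 20 °C. Without all 3 libraries that stand apart it was 9.65 ± 0.83 (adjusted p = 0.00103).

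Per kilobase of coding sequence, hsp-16.41 ranked the first of 12589 genes at 37 °C, with a mean of 18541 CPM per kb. hsp-70 ranked the third at 10014 CPM per kb, hsp-16.2 the fourth at 9635 CPM per kb and hsp-1 the fifth at 8878 CPM per kb. In unheated replicates 1 and 3 the ranks of hsp-16.41, hsp-70 and hsp-16.2 were 5586, 6654 and 6932. The rank order at 20 °C was led by eef-1A.1, a translation elongation factor, with 11381 CPM per kb over all 3 replicates; it ranked 30th at 37 °C with 3887 CPM per kb. At 37 °C 4 of the first 5 places in this order were chaperone genes, and at 20 °C none.

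**Figure D2:**
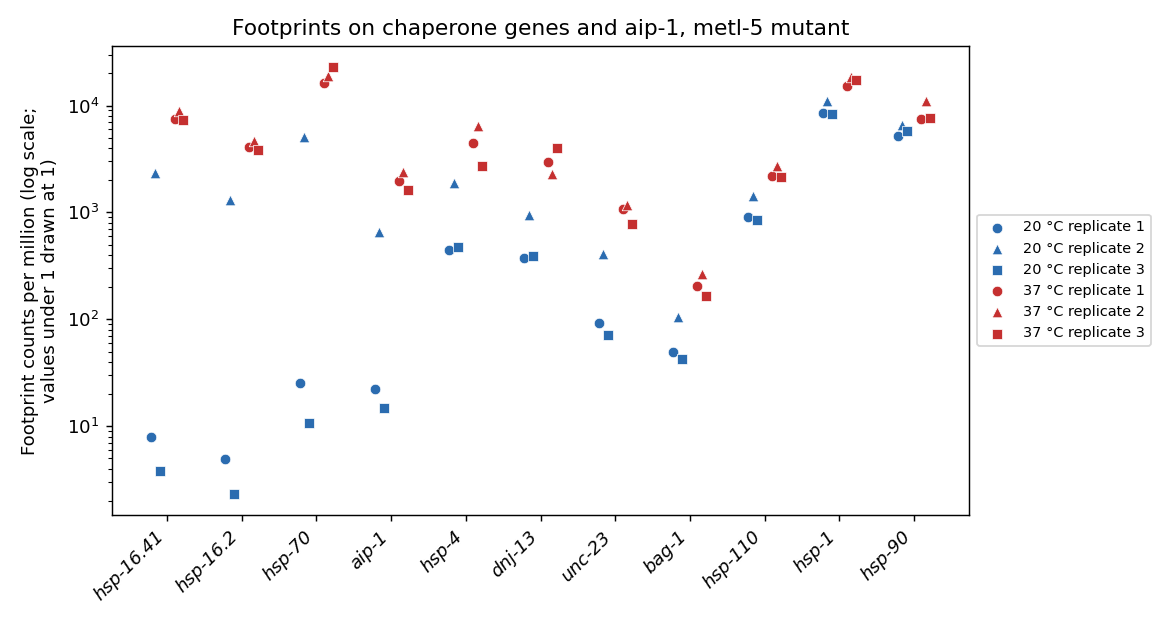
Footprint level of 10 chaperone genes and aip-1 in each mutant library, in CPM on a log axis, with values under 1 drawn at 1; points are libraries and the colours are the temperatures. The heated libraries of hsp-16.41, hsp-16.2, hsp-70 and aip-1 lie above all unheated ones, and replicate 2 at 20 °C lies between.

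Over the whole list of small heat shock protein genes, 11 of 16 were tested and 7 rose while none fell, with a median log2 change of 1.81 against −0.05 over all genes. The 9 called without replicate 2 at 20 °C had no fall among them either. hsp-17 rose by 1.92 ± 0.42 (adjusted p = 0.0125), hsp-43 by 1.20 ± 0.23 (adjusted p = 0.0116), hsp-25 by 1.06 ± 0.24 (adjusted p = 0.0133) and hsp-12.6 by 2.59 ± 0.77 (adjusted p = 0.0284). The 2 gene IDs with the symbol hsp-16.1, the 2 with hsp-16.48 and F08H9.3 had 0 to 8 counts in each mutant footprint library and were not tested. The names hsp-16.11 and hsp-16.49 matched no symbol. The hsp-16 genes exist in near-identical copies. No source used here says whether or how reads that match several copies were counted, so the count of each copy is uncertain. Small heat shock proteins together took 0.142, 0.560 and 0.112% at 20 °C and 1.41, 1.65 and 1.36% at 37 °C of gene counts.

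HSP70 proteins, the larger HSP110 and the exchange factors that reload them with ATP formed another list, in which 7 of 11 rose and none fell (1 fell with the replicate number as a block), with a median log2 change of 1.63. hsp-4, the ER member induced by unfolded proteins, had 444, 1866 and 472 CPM at 20 °C and 4495, 6442 and 2731 CPM at 37 °C and rose by 2.27 ± 0.47 (adjusted p = 0.0121). hsp-1, the constitutive cytosolic HSP70, had 8532, 10966 and 8412 CPM at 20 °C and 15242, 18545 and 17349 CPM at 37 °C, without overlap. It rose by 0.80 ± 0.22 (adjusted p = 0.0236), a smaller step from a higher start.

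Exchange factors were among those that rose. unc-23, a BAG-domain protein of muscle, had 92.2, 412 and 71.5 CPM at 20 °C and 1066, 1182 and 788 CPM at 37 °C. It rose by 2.38 ± 0.53 (adjusted p = 0.0132). bag-1 rose by 1.63 ± 0.29 (adjusted p = 0.0116) and hsp-110 by 1.09 ± 0.23 (adjusted p = 0.0121). The mitochondrial HSP70 gene hsp-6 had 1787, 2187 and 2061 CPM at 20 °C and 2399, 2686 and 2515 CPM at 37 °C, a log2 change of 0.25 (adjusted p = 0.344). F44E5.4 and F44E5.5, a pair of near-identical HSP70 genes, had fitted changes of 4.74 (adjusted p = 0.0251) and 4.52 (adjusted p = 0.0238). They had at most 1 count in replicates 1 and 3 at 20 °C, so the size of these folds depends on the prior count. The count of each gene of the pair is also uncertain. HSP70 genes together took 1.26, 2.28 and 1.26% at 20 °C and 4.26, 5.19 and 4.92% at 37 °C.

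HSP90 holds signalling proteins and receptors in a form ready for activation. Of 11 genes for HSP90 and its co-chaperones, 5 rose and none fell. unc-45, the myosin chaperone, rose by 1.54 ± 0.26 (adjusted p = 0.0116), sti-1, which links HSP70 to HSP90, by 1.11 ± 0.22 (adjusted p = 0.0116), and cdc-37, the kinase co-chaperone, by 1.05 ± 0.21 (adjusted p = 0.0119). hsp-90 itself had 5175, 6598 and 5817 CPM at 20 °C and 7476, 11118 and 7572 CPM at 37 °C, and its log2 change of 0.50 ± 0.23 (adjusted p = 0.121) did not pass the threshold. Among 29 J-domain proteins, which stimulate HSP70, 7 rose and none fell. dnj-13 had 377, 940.4 and 395 CPM at 20 °C and 2937, 2275 and 4008 CPM at 37 °C and rose by 2.38 ± 0.46 (adjusted p = 0.0116). Of 14 subunits of the CCT chaperonin, which folds actin and tubulin, and of prefoldin, 5 rose and none fell; cct-5 rose by 0.91 ± 0.19 (adjusted p = 0.0121). The median of the J-domain list was 0.12 and that of the chaperonin list 0.24, and most of their members did not pass the test. With the replicate number as a block 2 genes fell in the HSP90 list and 2 in the J-domain list. Without the 3 libraries that stand apart no gene of these 3 lists was called.

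Regulators of the stress response were called about as often as all genes. Of 14 HSF-1, insulin pathway and related regulators, 3 rose and 1 fell, against 12.2% and 14.7% of all genes tested. hsf-1 itself had 48.7, 65.6 and 50.7 CPM at 20 °C and 73.9, 74.2 and 102 CPM at 37 °C, a log2 change of 0.53 ± 0.25 (adjusted p = 0.131). hif-1, the hypoxia-inducible transcription factor, fell, with a log2 change of −0.98 ± 0.21 (adjusted p = 0.0121). The transcription factor genes daf-16 and skn-1 had changes of −0.53 (adjusted p = 0.0561) and 0.54 (adjusted p = 0.108). With the replicate number as a block, 4 rose and 3 fell in this list, and daf-16 was called (adjusted p = 0.0283).

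Genes that mark and remove damaged proteins were divided. aip-1, an arsenite-inducible protein that acts at the proteasome, had 22.1, 650.4 and 14.7 CPM at 20 °C and 1969.6, 2369 and 1622 CPM at 37 °C. Its log2 change was 3.15 ± 1.02 (adjusted p = 0.0385) with all libraries and 6.61 ± 0.45 (adjusted p = 2.25e-05) without replicate 2 at 20 °C, and it was not called without heated replicate 2. ubq-1, which encodes polyubiquitin, had 1197, 2369.9 and 1402 CPM at 20 °C and 4753, 5708 and 5632 CPM at 37 °C and rose by 1.64 ± 0.29 (adjusted p = 0.0116). Of 10 ubiquitin and CDC-48 genes 3 rose and none fell. The subunits of the proteasome, which degrades tagged proteins, did not follow: of 33 tested none rose and 1 fell, with a median log2 change of −0.26. With the replicate block 6 fell.

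In the unfolded protein response of the endoplasmic reticulum, 2 of 20 genes rose (10%) and 2 fell (10%). These shares were no larger than the 12.2% and 14.7% of all genes. xbp-1, the transcription factor of the IRE-1 branch, rose by 1.70 ± 0.33 (adjusted p = 0.0116) along with hsp-4. pdi-1, a protein disulfide isomerase, had 404, 348 and 357 CPM at 20 °C and 188, 224 and 149 CPM at 37 °C and fell, with a log2 change of −1.07 ± 0.28 (adjusted p = 0.0189). With the block 4 of the list fell, and without replicate 2 at 20 °C 1. No gene among 8 of the mitochondrial stress response passed the test, and 2 rose with the block. The mitochondrial chaperonin gene hsp-60 was among them, at 0.56 ± 0.19 (adjusted p = 0.0361).

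Outside the chaperones, the genes with the largest rises by the naming rule included nurf-1, a subunit of a chromatin remodelling complex, with 77.9, 567 and 71.98 CPM at 20 °C and 1986, 1801 and 3319.9 CPM at 37 °C. It rose by 3.31 ± 0.74 (adjusted p = 0.0133). The less studied gene Y43F8B.2 had 142, 805 and 70.3 CPM at 20 °C and 2847, 2667 and 2725 CPM at 37 °C and rose by 3.02 ± 0.69 (adjusted p = 0.0142). R107.5 rose by 3.00 ± 0.63 (adjusted p = 0.0122) and ZC53.1 by 3.06 ± 0.55 (adjusted p = 0.0116). Without replicate 2 at 20 °C the change of nurf-1 was 4.84 and that of Y43F8B.2 4.55. In each of these genes that replicate was the highest of the unheated libraries. tent-5, a poly(A) polymerase gene chosen after its values were seen, rose by 2.77 ± 0.65 (adjusted p = 0.0148) with all libraries and by 4.34 ± 0.42 (adjusted p = 0.000498) without replicate 2.

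Footprints of elongation factors, which move the ribosome along mRNA, fell. All 6 genes of translation elongation factors tested fell, with a median log2 change of −1.96. eef-1A.1, which brings aminoacyl-tRNA to the ribosome, had 16113, 14555 and 16758 CPM at 20 °C and 4122, 7359 and 4718 CPM at 37 °C. It fell, with a log2 change of −1.64 ± 0.47 (adjusted p = 0.0248). Its near-identical copy eef-1A.2 fell too, at −1.49 (adjusted p = 0.0179), and the count of each of these copies is uncertain. eef-1B.1, a subunit of the exchange factor that recharges it, had 1086, 851 and 1249.5 CPM at 20 °C and 95.01, 163 and 96.8 CPM at 37 °C, a change of −3.26 ± 0.68 (adjusted p = 0.0121). eef-1G changed by −2.28 ± 0.57 (adjusted p = 0.017) and eef-2, the translocase, by −0.81 ± 0.27 (adjusted p = 0.0425), a call that was lost without heated replicate 2. Elongation factors took 2.79, 2.45 and 3.18% at 20 °C and 0.917, 1.27 and 1.10% at 37 °C of gene counts, with no overlap between the temperatures.

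Cytosolic ribosomal proteins, the structural parts of the ribosome, had smaller median changes. None of 72 rose and 21 fell, with a median log2 change of −0.71, and 66 of 72 had a negative change. With the replicate block 37 fell and 1 rose. Without the 3 libraries none was called, the median was −0.97 and 67 of 72 were negative. The stalk proteins, which recruit the elongation factors, were among those that fell: rla-1 had 1289.6, 1062 and 1507 CPM at 20 °C and 144, 322 and 218 CPM at 37 °C, a change of −2.59 ± 0.63 (adjusted p = 0.0158), and rla-0 changed by −1.64 ± 0.37 (adjusted p = 0.014). rpl-6, of the large subunit, changed by −1.22 ± 0.31 (adjusted p = 0.0175). rps-3, of the small subunit, had 3072, 2835 and 3139 CPM at 20 °C and 2002, 2611 and 1779 CPM at 37 °C, and its change of −0.59 (adjusted p = 0.124) was not called. The list took 12.6, 11.5 and 13.8% at 20 °C and 7.47, 9.42 and 7.05% at 37 °C of gene counts.

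Initiation factors and mitochondrial ribosomal proteins were called, without the block, in shares no larger than those over all genes, which were 12.2% higher and 14.7% lower. Of 34 initiation factor genes 3 rose (8.82%) and 5 fell (14.7%), and with the block 12 rose and 5 fell. iff-1, an eIF5A gene of the germline, had 1581, 1291 and 1292 CPM at 20 °C and 333, 406 and 336 CPM at 37 °C, a change of −2.04 ± 0.48 (adjusted p = 0.0148). ifg-1, the eIF4G scaffold, changed by −1.06 ± 0.23 (adjusted p = 0.0127). Of 65 mitochondrial ribosomal protein genes 7 rose (10.8%) and 2 fell (3.08%), with 20 and 3 under the block. Without replicate 2 at 20 °C 2 rose. Among 53 nuclear genes of oxidative phosphorylation 3 rose and 11 fell. atp-2 and atp-3, of the ATP synthase, changed by −1.38 ± 0.29 (adjusted p = 0.0121) and −1.39 ± 0.31 (adjusted p = 0.0135).

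Cuticle collagens and yolk proteins were among the secreted products with falls. Of 131 cuticle collagen genes tested, out of 176 on the list, 49 fell and 1 rose, with a median log2 change of −1.09; with the block 3 rose. Collagens form the cuticle and are made by the hypodermis. col-81 had 2613, 1382 and 2566 CPM at 20 °C and 392, 361 and 226 CPM at 37 °C, a change of −2.85 ± 0.53 (adjusted p = 0.0116). col-19, an adult-specific collagen, had 2496, 1615 and 2009.6 CPM at 20 °C and 636, 741 and 239 CPM at 37 °C, a change of −2.02 ± 0.55 (adjusted p = 0.0215). The temperatures did not overlap for either gene. Collagens together took 6.95, 4.34 and 5.71% at 20 °C and 1.34, 1.84 and 0.804% at 37 °C. Without the 3 libraries no collagen was called and the median was −2.05.

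Vitellogenins, the yolk proteins that the intestine secretes for the oocytes, fell in 5 of 7 genes of a list that includes the yolk receptor, and in all 7 with the replicate block. vit-6 had 20315, 13045 and 14629 CPM at 20 °C and 3971, 8757 and 3639 CPM at 37 °C, a change of −1.64 ± 0.51 (adjusted p = 0.0338). vit-5, which has near-identical copies among the yolk genes, changed by −1.86 ± 0.53 (adjusted p = 0.025). vit-2 changed by −1.85 ± 0.63 (adjusted p = 0.0462), and its adjusted p was 0.0507 without replicate 2 at 20 °C. The list took 4.56, 2.96 and 3.11% at 20 °C and 0.999, 1.98 and 0.811% at 37 °C.

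Falls were also found in lists of lysosomal and immune genes. Of 40 genes of the V-ATPase, the proton pump of lysosomes, and of lysosomal proteases, 21 fell and none rose. Their median log2 change was −1.25. vha-7, a V-ATPase subunit, changed by −1.69 ± 0.36 (adjusted p = 0.0123). Of 75 C-type lectin genes tested, out of 239, 29 fell and none rose. clec-1 had 74.8, 56.7 and 76.7 CPM at 20 °C and 8.38, 5.77 and 6.54 CPM at 37 °C, a change of −3.43 ± 0.62 (adjusted p = 0.0116). Among 64 genes of lysozymes, saposins and antimicrobial peptides, whose median changed sign without scaling (−0.07 and 0.01), 5 rose and 17 fell, against 13 and 20 with the block. Without the 3 libraries that stand apart no V-ATPase, protease or lectin gene was called. lys-1, a lysozyme, changed by −2.54 ± 0.54 (adjusted p = 0.0124). elt-2, the GATA factor that maintains the intestine, had 23.2, 18.6 and 27.04 CPM at 20 °C and 7.95, 5.92 and 7.14 CPM at 37 °C and changed by −1.81 ± 0.32 (adjusted p = 0.0116).

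The marker list of the intestine, which shares genes with the lists above, had 3 of 5 genes that fell and none that rose, and took 1.24, 0.844 and 1.04% at 20 °C and 0.186, 0.582 and 0.234% at 37 °C of gene counts. In mRNA of the same strain 2 of these 5 rose and none fell. The marker list of the hypodermis had 2 of 4 genes that fell and 1 that rose. The sperm markers had 4 of 6 that fell and 1 that rose, with a median log2 change of −1.11. The neuron markers had 2 of 6 that fell, the germline markers 1 of 3, and of 4 pharynx markers none was called. That of body wall muscle had none of 4 called and took 1.69, 1.29 and 1.36% at 20 °C and 1.63, 1.27 and 0.974% at 37 °C. With the replicate block 1 germline and 1 pharynx marker were called higher in addition, and 1 pharynx and 1 body wall muscle marker lower. Markers of the zygotic embryo were near 0 counts and none was tested. The part of tissue composition in these results was not tested.

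Falls were also found in lists of lipid and detoxification enzymes. Of 16 fatty acid desaturases and elongases 6 fell and none rose. elo-6, an elongase of branched-chain fatty acids, had 95.8, 85.4 and 131 CPM at 20 °C and 2.79, 3.55 and 2.58 CPM at 37 °C, a change of −5.21 ± 1.01 (adjusted p = 0.0116). elo-2 changed by −4.40 ± 0.81 (adjusted p = 0.0116) and elo-5 by −3.58 ± 0.90 (adjusted p = 0.0173). Of 46 UDP-glucuronosyltransferases, which attach sugars to foreign compounds, 17 fell and none rose. ugt-47 changed by −2.16 ± 0.33 (adjusted p = 0.0116). Among 40 cytochromes P450 8 fell (20%) and 1 rose (2.5%), against 14.7% and 12.2% of all genes. With the block 15 of 40 fell, against 20.8% of all genes. Without replicate 2 at 20 °C 5 of 40 fell, a share no larger than the 13.8% of all genes in that fit. The P450 gene that rose was cyp-29A3, whose direction in footprints reversed without the heated replicates 2 and 3 and whose mRNA rose, as given above. With the block 1 UDP-glucuronosyltransferase and 1 metal response gene rose. Of 15 metal response genes 5 fell, 8 with the block; the heme transporter gene hrg-4 changed by −3.77 ± 0.68 (adjusted p = 0.0116). Of 40 glutathione S-transferases 6 rose and 4 fell, near the 12.2% and 14.7% over all genes; gst-36 rose by 1.63 ± 0.38 (adjusted p = 0.0148).

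The largest falls by the naming rule were in genes of little known function. ZK512.7 had 91.8, 74.4 and 102 CPM at 20 °C and 3.65, 1.48 and 0.793 CPM at 37 °C, a change of −5.63 ± 1.10 (adjusted p = 0.0116). B0454.5 had 31.6, 23.5 and 24.1 CPM at 20 °C and 0.645, 0.148 and 0.992 CPM at 37 °C, a change of −5.62 ± 0.99 (adjusted p = 0.0116), and ugt-63 changed by −5.27 ± 0.97 (adjusted p = 0.0116). The heated libraries of B0454.5 held 3, 1 and 5 counts and those of ugt-63 held 1, 1 and 4, so the sizes of their folds rest on few reads. scav-4, a scavenger receptor gene, and spl-2, a sphingosine phosphate lyase gene, changed by −5.32 (adjusted p = 0.0116) and −5.21 (adjusted p = 0.0157).

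**Figure D3:**
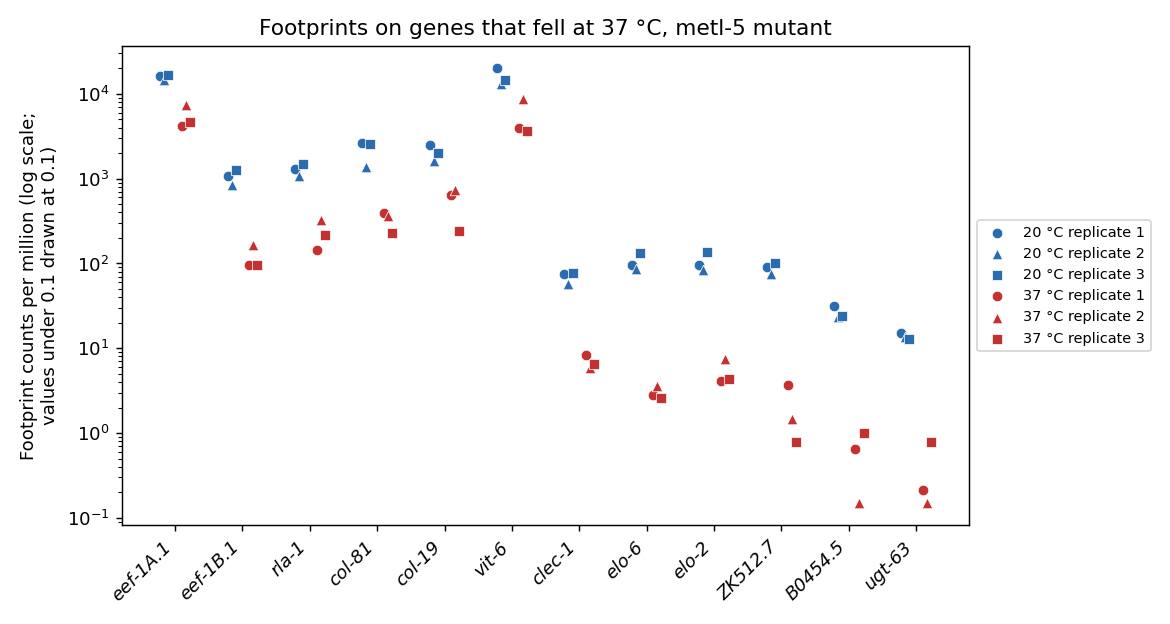
Footprint level of 12 genes that fell, in each mutant library, in CPM on a log axis with a floor of 0.1; points are libraries and the colours are the temperatures. For all 12 genes the 3 heated libraries lie below the 3 unheated ones. The rule for naming the largest falls required this, and it held for 25.3% of all genes tested.

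Germline genes went both ways. Of 75 genes of major sperm proteins and other sperm products 27 fell and 4 rose, and without replicate 2 at 20 °C 2 rose. gsp-3, a sperm protein phosphatase, had 42.2, 21.3 and 50.4 CPM at 20 °C and 3.44, 4.44 and 5.55 CPM at 37 °C, a change of −3.19 ± 0.63 (adjusted p = 0.0116). Major sperm protein genes are near-identical copies, and single members are uncertain. In oocyte and eggshell genes 7 of 28 fell (25%) and 2 rose (7.14%), against 14.7% and 12.2% of all genes. Without replicate 2 at 20 °C 4 of 28 fell, near the 13.8% of all genes in that fit. puf-3, an RNA-binding protein of oocytes, had 160.3, 167 and 167 CPM at 20 °C and 14.8, 30.2 and 30.1 CPM at 37 °C, a change of −2.79 ± 0.81 (adjusted p = 0.0269), and cpg-2, an eggshell proteoglycan, changed by −2.87 ± 0.79 (adjusted p = 0.0224). In P granule and germline regulator genes, by contrast in counts, 8 of 25 rose and 1 fell, against 10 and 3 with the block. Without the 3 libraries that stand apart 1 of these genes was called as higher, and no sperm or oocyte gene was called. glp-1, the Notch receptor of germline stem cells, had 21.3, 45.7 and 21.4 CPM at 20 °C and 129, 89.4 and 113 CPM at 37 °C and rose by 1.85 ± 0.33 (adjusted p = 0.0116). fbf-1, a translational repressor in the same cells, rose by 1.96 ± 0.43 (adjusted p = 0.0127). gld-1, a repressor that acts in meiosis, fell, at −1.25 ± 0.32 (adjusted p = 0.0188).

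In the lists of autophagy and splicing genes more members rose than fell. Of 26 autophagy genes 9 rose and none fell; with the block 13 rose and 3 fell. sqst-1, the receptor that carries ubiquitin-tagged cargo to autophagosomes, had 55.2, 452 and 63.7 CPM at 20 °C and 791, 1668 and 513 CPM at 37 °C and rose by 2.38 ± 0.66 (adjusted p = 0.0229). Without replicate 2 at 20 °C its change was 3.92, and without heated replicate 2 it was not called. bec-1, a Beclin homolog, rose by 1.50 ± 0.29 (adjusted p = 0.0116), atg-9 by 1.44 ± 0.28 (adjusted p = 0.0116) and lgg-1, which coats the autophagosome membrane, by 1.21 ± 0.26 (adjusted p = 0.0124). Of 48 splicing factor genes 13 rose and 1 fell, against 24 and 1 with the block. Without the 3 libraries that stand apart 2 autophagy genes and no splicing gene were called. uaf-2, a subunit that recognises the end of introns, rose by 1.28 ± 0.23 (adjusted p = 0.0116).

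Muscle genes rose in part. Of 30 genes of muscle structure 6 rose (20%) and 1 fell (3.33%), against 12.2% and 14.7% of all genes. With the block 13 of 30 rose and 3 fell, against 18.7% and 20.8% of all genes. Without replicate 2 at 20 °C 4 rose and 1 fell, and without the 3 libraries that stand apart none was called. mlc-1, a myosin light chain, rose by 1.34 ± 0.36 (adjusted p = 0.0207) and unc-27, a troponin subunit, by 1.41 ± 0.33 (adjusted p = 0.0148). unc-54, the main myosin heavy chain, had 12348, 8825 and 9649 CPM at 20 °C and 8828, 7043 and 4906 CPM at 37 °C, a change of −0.67 (adjusted p = 0.139). It was called as lower with the block (adjusted p = 0.043). Of 36 histone genes tested, out of 82, 9 rose (25%) and 6 fell (16.7%), where all genes had 12.2% and 14.7%. With the block 9 rose and 11 fell. Their median log2 change was −0.44 with all libraries and 0.07 without replicate 2 at 20 °C, and many histone genes are near-identical copies. Nuclear hormone receptor genes had 9 higher (6.67%) and 26 lower (19.3%) of 135, against 12.2% and 14.7% of all genes. Without replicate 2 at 20 °C 5 were higher.

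**Figure D4:**
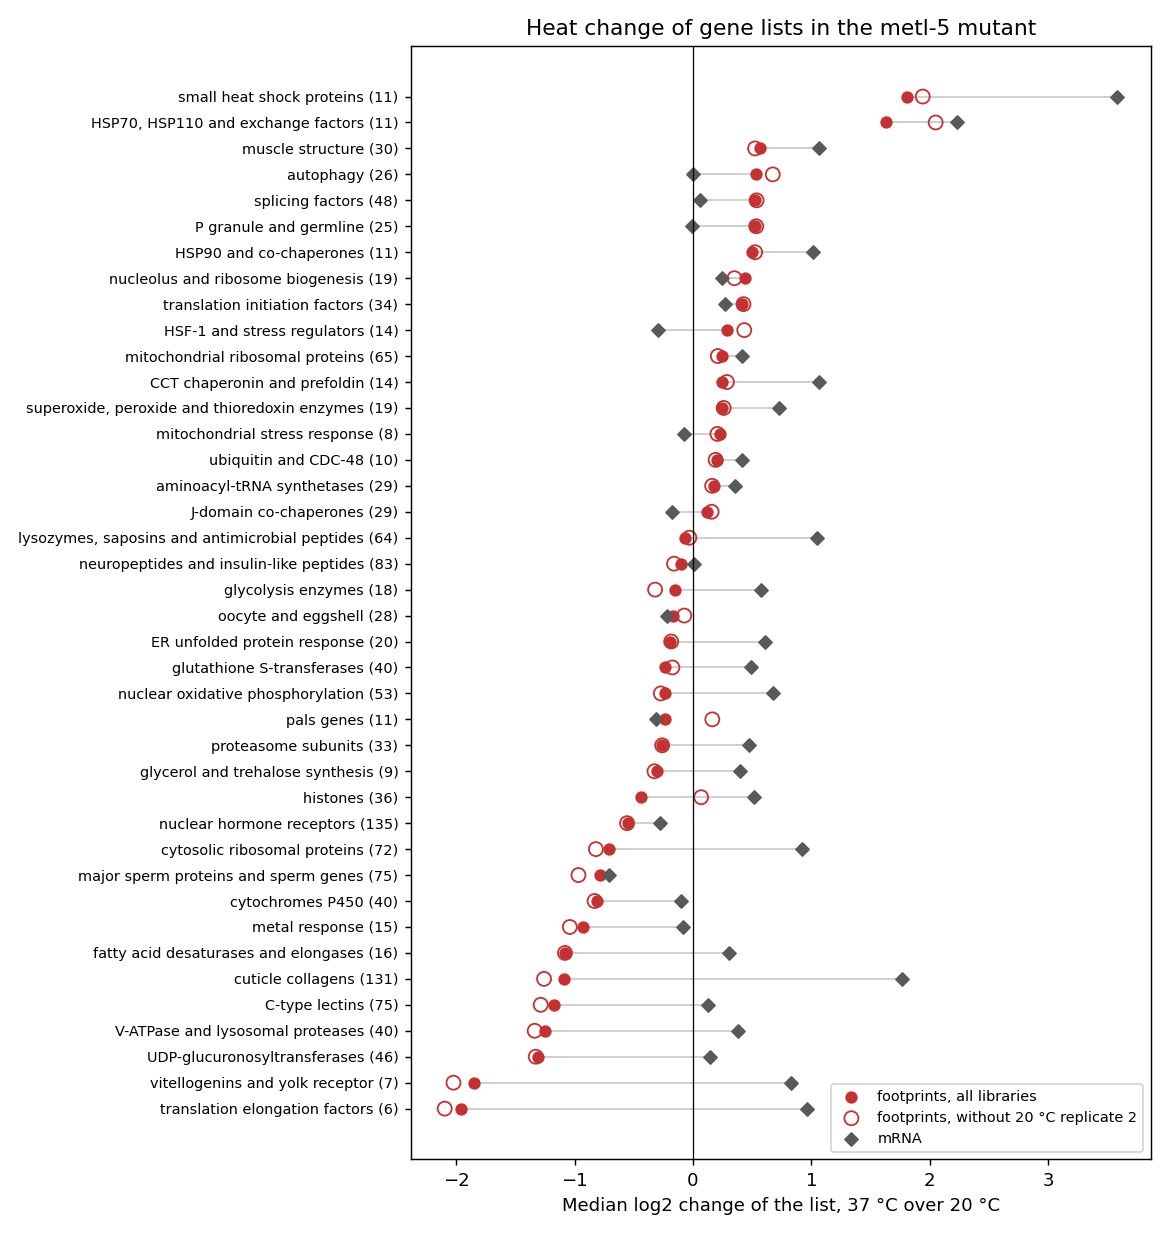
Median log2 change of footprints from 20 to 37 °C in the mutant for each gene list (horizontal axis), with the number of genes tested in brackets. Filled red points use all libraries, open red points leave out replicate 2 at 20 °C and grey diamonds give the mRNA of the same strain. Elongation factors, vitellogenins and collagens have footprint medians of −1.96, −1.85 and −1.09 with mRNA medians above 0.

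The mRNA libraries of the same strain show how much of these changes mRNA shared. In them 2660 of 13315 genes (20.0%) differed between the temperatures, 1440 higher (10.8%) and 1220 lower (9.16%). Of 12079 genes tested in both assays, 265 rose in both, which is 17.7% of the 1494 footprint rises and 19.6% of the 1354 mRNA rises. Both fell for 357, which is 19.7% of the footprint falls and 30.2% of the mRNA falls. Another 357 were called in opposite directions. Across these genes the log2 changes had a Pearson r of 0.362 and a Spearman rho of 0.252, a description over genes that are not independent. Among the genes whose footprints rose, mRNA was higher for 775 of 1494, with a median log2 change of 0.04. Among those whose footprints fell it was lower for 1213 of 1809, with a median of −0.51. In the 6 mutant mRNA libraries ZK228.3 and ZK228.4 had 0 counts and cTel55X.1 was present in all 6, so none showed the reads of both strains seen in heated footprint replicates 2 and 3. metl-5 had 41, 37 and 36 counts at 20 °C and 56, 40 and 44 at 37 °C in mutant mRNA, against 106 to 164 in wild-type mRNA.

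The heat-inducible chaperones rose in mRNA, and in footprints they passed the threshold once replicate 2 at 20 °C was left out. mRNA of hsp-70 stood at 9.61 ± 1.40 CPM at 20 °C and 2027 ± 313 CPM at 37 °C (SD, n = 3), a log2 change of 8.31 ± 0.40 (adjusted p = 3.83e-09). For hsp-16.2 and hsp-16.41 mRNA changed by 9.61 (adjusted p = 2.77e-09) and 9.76 (adjusted p = 2.41e-08). Of the small heat shock protein genes 12 of 16 rose in mRNA and of the HSP70 list 10 of 11.

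A single model of footprints and mRNA tested whether their heat changes differed. It called 2416 of 13895 genes (17.4%), 1256 with the footprint change above the mRNA change (9.04%) and 1160 with it below (8.35%). The median difference over all genes was −0.11 on the log2 scale. Without the heated footprint replicates 2 and 3 it called 1035 genes, and without all 3 libraries 1089.

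For the inducible chaperones this difference depended on replicate 2 at 20 °C. It was −4.72 (adjusted p = 0.034) for hsp-70, −6.26 (adjusted p = 0.00908) for hsp-16.2 and −6.34 (adjusted p = 0.0106) for hsp-16.41 with all libraries. Without that library it was 1.61 (adjusted p = 0.0659), 0.40 (adjusted p = 0.698) and 0.50 (adjusted p = 0.682). For aip-1 it was −0.56 (adjusted p = 0.779) with all libraries, and without that library the footprint change exceeded the mRNA change by 2.86 (adjusted p = 0.000414). In the J-domain list the footprint change was called above the mRNA change for 9 of 29 genes and below it for 2. In the HSP90 list it was called above for 1 of 11 and below for 4. In the chaperonin list it was called above for none of 14 and below for 6. Without the 3 libraries that stand apart 4 J-domain genes were called above and 2 below. In that fit 3 genes of the HSP90 list and 2 of the chaperonin list were called below. Called or not, the difference was negative for 9 of 29, 7 of 11 and 12 of 14 genes of these lists. hsp-90 mRNA rose by 2.33 ± 0.24 (adjusted p = 1.26e-05), and its footprint change lay below that, at −1.79 (adjusted p = 0.00102). For hsp-6 the mRNA change was 2.23 ± 0.33 (adjusted p = 0.000357) and the difference −1.94 (adjusted p = 0.00224). crt-1, the ER chaperone calreticulin, had an mRNA change of 1.89 (adjusted p = 0.000431) and a difference of −2.25 (adjusted p = 0.000805). pdi-1 rose in mRNA, by 1.24 ± 0.22 (adjusted p = 0.00166), where its footprints fell.

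Some genes were called lower in footprints and higher in mRNA: 15 of 72 ribosomal protein genes tested in both, 3 of 6 elongation factor genes and 41 of 131 collagen genes. Over all genes this combination was found for 180 of 12079. All 72 ribosomal protein genes had a positive mRNA change and 46 rose, with a median of 0.92. The footprint change was called below the mRNA change for 53 of 72, for 55 without replicate 2 at 20 °C and for 30 without the 3 libraries. Called or not, the difference was negative for 69 of 72 with all libraries, with a median of −1.60. mRNA of eef-1A.1 stood at 6802 ± 622 CPM at 20 °C and 14156 ± 2470.2 CPM at 37 °C (SD, n = 3), a log2 change of 1.67 ± 0.28 (adjusted p = 0.000958). Its difference was −3.27 ± 0.56 (adjusted p = 0.000709), and −3.82 (adjusted p = 0.00794) without the 3 libraries. All 6 elongation factors had a difference below 0 that passed the test, with and without those libraries.

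Of 144 collagen genes tested in mRNA 104 rose and none fell, with a median log2 change of 1.77. The footprint change was called below the mRNA change for 89 of 145 and above it for none. Called or not, the difference was negative for 140 of 145, with a median of −2.89. Without the 3 libraries 84 were called below. mRNA of col-19 stood at 2385 ± 352 CPM at 20 °C and 5163 ± 631 CPM at 37 °C (SD, n = 3), a rise of 1.71 ± 0.31 (adjusted p = 0.00174), and the difference was −3.69 ± 0.65 (adjusted p = 0.000853). The difference was called below 0 for 10 of 33 proteasome subunits and 22 of 53 nuclear genes of oxidative phosphorylation. For V-ATPase and lysosomal protease genes this was 21 of 40. Called or not, the difference was negative for 31, 46 and 38 genes of these 3 lists. With all libraries no gene of the proteasome or V-ATPase lists passed the test above 0, and 1 of the V-ATPase list did without replicate 2 at 20 °C. Without the 3 libraries 1 proteasome, 10 oxidative phosphorylation and 14 V-ATPase or lysosomal protease genes were called below 0.

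In sperm genes mRNA was also tested: 18 of 82 fell and 3 rose, with a median of −0.71. The elongases elo-5 and elo-1 fell in both assays, with mRNA changes of −3.17 (adjusted p = 1.89e-05) and −0.99 (adjusted p = 0.00442). For elo-6 the mRNA change was −3.78 (adjusted p = 9.81e-07).

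**Figure D5:**
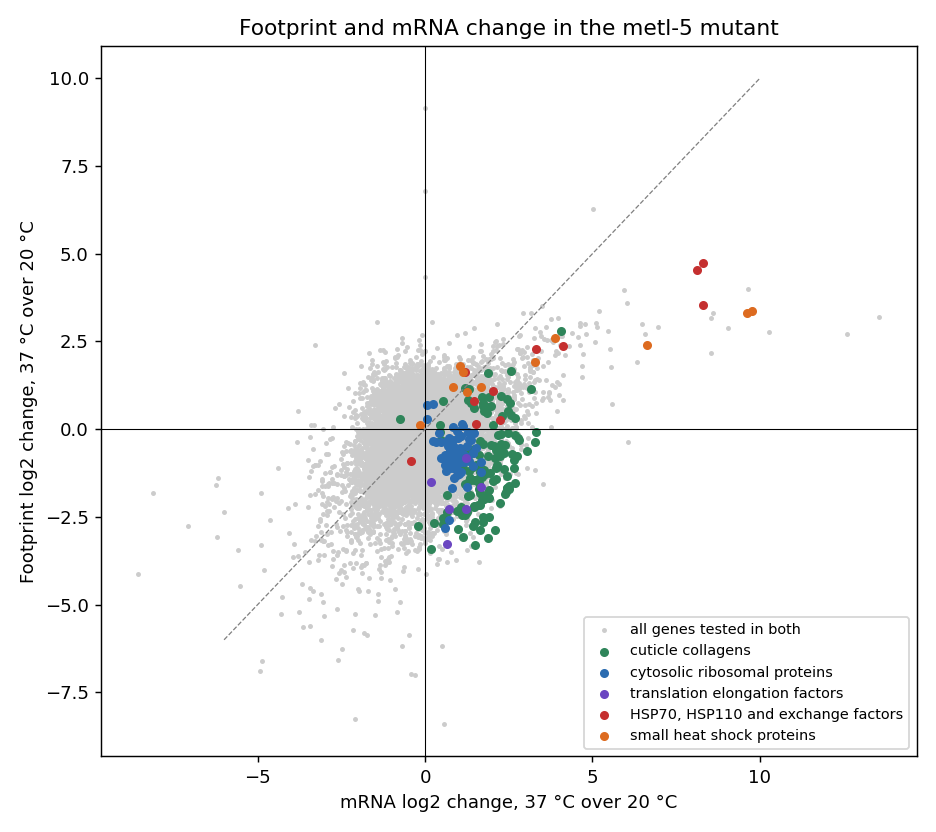
Log2 change from 20 to 37 °C of mRNA (horizontal axis) and of footprints (vertical axis) in the mutant, each point a gene tested in both, with 5 gene lists coloured and a dashed line of equal change. Ribosomal proteins, elongation factors and collagens lie below the line, to the right of 0 in mRNA for most of their genes.

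Some genes had higher footprints with mRNA that was lower or did not pass the test. epg-4, an autophagy gene, rose in footprints by 1.62 ± 0.31 (adjusted p = 0.0116), its mRNA fell, at −1.39 ± 0.32 (adjusted p = 0.00715), and the difference was 3.05 ± 0.47 (adjusted p = 0.000416). nhr-23, a nuclear hormone receptor of molting, rose by 1.92 ± 0.38 (adjusted p = 0.0117) in footprints with an mRNA change of −1.25 (adjusted p = 0.0373) and a difference of 3.21 (adjusted p = 0.000995). snrp-27, a spliceosomal protein gene, had 1.07 (adjusted p = 0.0199) in footprints and −1.24 (adjusted p = 0.00592) in mRNA. For glp-1 the mRNA change was −0.59 (adjusted p = 0.21) and the difference 2.48 (adjusted p = 0.00164). hsf-1 and skn-1 had differences of 1.24 (adjusted p = 0.0308) and 1.22 (adjusted p = 0.0248). Of 26 autophagy genes 7 had a footprint change called above the mRNA change and none below. Of 48 splicing factor genes 7 were called above and 1 below, against 9.04% and 8.35% of all genes. Called or not, the difference was negative for 8 of the 26 and 10 of the 48. Without the 3 libraries that stand apart 3 autophagy and 4 splicing factor genes were called above.

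The wild-type worms allow the response to be set beside that of another strain. In the same fit 2071 of 12387 genes (16.7%) were called in Wild Type N2 footprints, 1212 higher (9.78%) and 859 lower (6.93%). The difference of the heat response between the strains was called for none of 12387 genes (0%) by edgeR, with 62 at an unadjusted p under 0.05, and for none by DESeq2, with 58. Without the heated mutant replicate 1 it was called for 1 gene, ZK228.3 (log2 difference 7.85, adjusted p = 0.0165), among the genes by which the labels were checked. The unequal counts of calls therefore do not show that the strains differ. The 62 and 58 genes also lie under the share of 0.05 that evenly spread p-values would give. Together with the 4 libraries that held reads of both strains, this means the lack of calls does not show that the strains respond alike. Collagens had 49 falls in the mutant and 41 in the wild type, ribosomal proteins 21 and 5, with medians of −0.71 and −0.68, and small heat shock proteins 7 and 9 rises. Heated wild-type replicate 1 had 34.8% unmapped reads, against 2.22% to 6.78% in the other 5 wild-type footprint libraries. Without heated mutant replicates 2 and 3, which held reads of both strains, edgeR again called none, with 148 at an unadjusted p under 0.05. Without these and the 2 wild-type libraries with cTel55X.1 reads, a choice made after seeing the data, it called none, with 303.

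With the replicate number as a block the mutant heat response was called for 4896 genes (39.5%), 2316 higher (18.7%) and 2580 lower (20.8%), so the total was under 1.5 times that without it and the higher count just over.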

How the data were processed

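Ribosome footprints and mRNA of adult worms were sequenced in 24 libraries. For each, the authors deposited a table of raw counts per gene, with unstranded, sense and antisense columns; the submitters' processing notes name STAR and DESeq2, with no versions. The genome build of the counts, their trimming and the treatment of multiply matching reads were not given in the sources used here. Comparison tables deposited by the authors were not used. Sense counts were used for footprints. For mRNA the unstranded counts were used, since 50.5% to 50.9% of the mutant libraries' gene counts lay on the sense strand, so antisense partners cannot be told apart there. Unassigned reads, 15.6% to 28.8% of a mutant footprint library, were left out.

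Gene symbols came from a list of gene names, and from the WBcel235 annotation of Ensembl where that list had none. The annotation matched 19568 of 19669 gene IDs. Coding length (the longest coding sequence of a gene, found for 19351) came from it too. No coordinates were converted or printed. Genes were tested with edgeR 4.0.16 in R 4.3.3 (filterByExpr, TMM scaling, quasi-likelihood F test, Benjamini-Hochberg adjustment over all genes tested, threshold 0.05). The 12 footprint libraries were fitted together in 4 groups, so the groups share one estimate of spread. The mRNA change, and the difference between footprint and mRNA change as an interaction term, were fitted likewise. The standard error, printed after ±, is the log2 change divided by the square root of F. The scripts were tested on simulated data. DESeq2 1.42.0, other scaling, no filter, a replicate block and leaving out libraries were the alternatives.

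Named genes were metl-5, cyp-29A3 and hsp-70, the 12 largest rises and 12 largest falls among called genes without overlap of the temperatures and with a mean log2 CPM of 1 or more, and up to 3 called members with the smallest p from each list. Other genes were chosen after their values were seen. The members and all 48 lists were chosen with earlier results of these data known. Same-numbered libraries deviated together in footprints (r = 0.332, 0.121 and 0.234 for replicates 1, 2 and 3, each over 0.1), so the block is given where it changes a call or moves a count by over 1.5 times.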

Additional observations from a re-analysis of the deposited data

How the results depend on the processing

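The count of 3332 genes called in the mutant footprint heat response was 3339 with DESeq2 size factors in edgeR, 3010 without a filter on low counts, 4053 with DESeq2, 4180 with only the mutant footprint libraries in the fit, 3336 with unstranded counts and 3340 without scaling beyond library size. The last changed the division into higher and lower from 1507 and 1825 to 1753 and 1587. It was 4239 without replicate 2 at 20 °C and wild-type replicate 2 at 37 °C, a choice made after seeing the data. Leaving out 1 mutant library at a time gave 0 to 3348 genes for footprints, 1266 to 2507 for mRNA, 1493 to 2671 for the footprint against mRNA difference and 0 to 1 for the strain difference. Leaving out heated mutant replicates 2 and 3 gave 0 for footprints and 1035 for the difference from mRNA; leaving out all 3 libraries that stand apart gave 70 and 1089. The cause was not tested, beyond the fewer samples in these fits.

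With the replicate block the footprint count was 4896, the difference from mRNA 3392 and the strain difference 0 (127 at an unadjusted p under 0.05). In mRNA the same numbers correlated at 0.0659, 0.250 and 0.00155, which does not show pairing, and the block moved the count from 2660 to 4054. No named gene with a call lost it under the block, and the genes that gained one are given in the report or belong to the lists counted there.

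Of the genes named, 3 reversed. Without heated mutant replicates 2 and 3 the log2 change was −0.20 for metl-5, −0.21 for cyp-29A3 and −2.46 for ZK228.3; without all 3 libraries it was −0.39 for cyp-29A3 and −2.89 for ZK228.3. Of 99 genes named, calls were lost for 86 without replicate 1 at 20 °C, 62 without replicate 3 at 20 °C, 30 and 33 without replicates 1 and 3 at 37 °C, 83 without heated replicates 2 and 3 and 71 without all 3 libraries. Without heated replicate 2 the 4 that lost it were metl-5, aip-1, sqst-1 and eef-2, without replicate 2 at 20 °C and without scaling vit-2, without a filter ctl-2 and eef-2, and with only the mutant libraries aip-1. Of 47 lists with 3 or more genes tested, the sign of the median differed for 3 without replicate 2 at 20 °C (histones, the pals genes and the pharynx markers), for 2 without heated replicates 2 and 3, for 1 without all 3 and for 1 without scaling. Depth limits the heated libraries most, with 4652198 to 6754389 gene counts.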

Other observations

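Genes on the X chromosome, which is largely silent in the germline, had 76 of 1720 tested that rose (4.42%) and 358 that fell (20.8%). On the autosomes the share that rose ranged from 10.1% on chromosome V to 16.2% on chromosome III, and the share that fell from 10.3% on chromosome III to 16.1% on chromosome V. The difference between chromosomes was not tested.

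Genes that rose had a median coding length of 1100 bases and genes that fell one of 1245 bases, against 1098 over all genes tested. Genes that rose had a median level of 5.25 on the log2 CPM scale, above the 3.84 of all genes tested and the 3.68 of those that fell.

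Of 19 superoxide, peroxide and thioredoxin enzyme genes tested 2 rose (10.5%) and 1 fell (5.26%). These shares were no larger than the 12.2% and 14.7% of all genes. With the replicate block 5 of 19 rose and 2 fell, against 18.7% and 20.8% of all genes. gpx-2, a glutathione peroxidase, rose by 0.90 ± 0.19 (adjusted p = 0.0121) and glrx-10, a glutaredoxin, by 0.97 ± 0.19 (adjusted p = 0.0118), while ctl-2, the peroxisomal catalase, had a log2 change of −0.65 ± 0.21 (adjusted p = 0.035). In carbohydrate metabolism tps-1, which makes the stress protectant trehalose, had 29.6, 53.3 and 30.9 CPM at 20 °C and 76.7, 105 and 68.8 CPM at 37 °C and rose by 1.08 ± 0.23 (adjusted p = 0.0124). gpdh-1, which makes glycerol under osmotic stress, had 26.3, 15.4 and 17.9 CPM at 20 °C and 3.44, 6.66 and 5.16 CPM at 37 °C, a change of −2.04 ± 0.59 (adjusted p = 0.0253). Of 18 glycolysis enzyme genes 1 rose (5.56%) and 2 fell (11.1%), also no larger shares than over all genes. With the block 3 rose and 5 fell. The glycolytic genes hxk-3 and aldo-2 changed by 0.83 (adjusted p = 0.0193) and −1.30 (adjusted p = 0.0392).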
